A study of Mus musculus with 6 samples.

Results

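The core cardiac transcription factors are the DNA-binding proteins that set up heart muscle gene expression. They are represented here by 10 genes, Gata4, Gata6, Nkx2-5, Tbx5, Tbx20, Hand2, Mef2a, Mef2c, Mef2d and Srf, which were taken by name from the table of raw counts. All 10 had a row among the 38293 genes of the table, and all 10 were among the 14746 genes that passed the filter on low counts. The RNA came from hearts of adult male C57BL/6J (backcrossed) mice 14 days after permanent occlusion of the LAD artery, with 3 Zeb2 fl/fl mice (labelled WT, here control 1 to 3) and 3 Zeb2 cKO mice (cKO 1 to 3), and every mouse had been infarcted. Both groups carry the floxed Zeb2 alleles. The Zeb2 cKO mice also carry a Cre recombinase under the murine Myh6 promoter, which acts in cardiomyocytes, and the 6 libraries hold no group with Cre and intact Zeb2. The labels place the tissue in the border region of the infarct, whereas the methods name the remote zone.

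GATA4 and GATA6 are zinc finger proteins, NKX2-5 is a homeobox protein, TBX5 and TBX20 are T-box proteins and HAND2 is a basic helix-loop-helix protein. Together they bind, often side by side, at promoters and enhancers of sarcomere, ion channel and natriuretic peptide genes. MEF2A, MEF2C, MEF2D and SRF share a MADS domain and link muscle genes to calcium, stretch and actin signals. ZEB2 is a zinc finger factor, mostly a repressor, that binds paired E-boxes and is known from epithelial to mesenchymal transition. In the adult heart several of the factors are made outside cardiomyocytes too, since fibroblasts use GATA4, GATA6 and TBX20, and endothelial and myeloid cells use MEF2C.

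Total counts were between 37288174 and 51136331 per library, of which 60.6% to 67.0% lay in the mitochondrially encoded genes. Zeb2 itself was at 61.3, 116 and 71.9 CPM (counts scaled to a common library size with TMM normalisation) in control 1, 2 and 3 and at 59.6, 72.6 and 66.5 CPM in cKO 1, 2 and 3, so the groups overlapped, with a log2 fold change of -0.33 that was -0.0058 without control 2. The deleted exon was not examined, since the table gives 1 count a gene, and ZEB2 is also made by cells that the Cre does not reach. Control 2 stood apart from the other 5 libraries. All 10 cardiomyocyte markers were detected, with a summed level of 34640 CPM in this library and 55230 to 67130 CPM in the others. The 10 fibroblast markers summed to 10550 CPM in it and 1846 to 2562 CPM in the others, and the 10 macrophage markers to 888 against 223 to 313 CPM. No marker of these 3 lists was at 0. In whole tissue, fewer cells of a type and less RNA per cell cannot be told apart. Values without control 2 are given beside those with all 6 libraries, and the part of tissue make-up in these results was not tested.

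Across genotypes 0 of the 10 factors passed an adjusted p of 0.05, and 0 of them reached an unadjusted p under 0.05. The adjusted p was between 0.957 and 0.998 for the 10 genes (edgeR, quasi-likelihood F-test, Benjamini-Hochberg over all tested genes). In the same test 0 genes of the whole table passed in either direction (0%), with 127 lower genes (0.861%) and 153 higher genes (1.04%) at an unadjusted p under 0.05. DESeq2 called 2 higher genes, neither of them among the 10 factors. At the log2 fold change of 0.2 that the study used as its cutoff, Tbx20 lay below -0.2 and Nkx2-5 and Tbx5 above 0.2, while 7 factors lay between. Over all tested genes 22.6% were below -0.2 and 15.9% above 0.2. The count above 0.2 changed with single libraries, with 5 factors (Nkx2-5, Tbx5, Hand2, Mef2d and Srf) without control 1, 3 without control 3, 1 without cKO 3 and 0 without control 2. The share of the 14746 genes above 0.2 moved as well, to 26.4% without control 1, 21.5% without control 3 and 13.8% without control 2. The median log2 fold change of the 10 factors was 0.051, beside -0.0069 over all tested genes. The 95% interval of the log2 fold change was narrowest for Gata6, at -0.40 to 0.065, and widest for Tbx5, at -0.48 to 1.16, so changes of the sizes inside these intervals were not resolved with 3 mice a group.

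**Figure D1:**
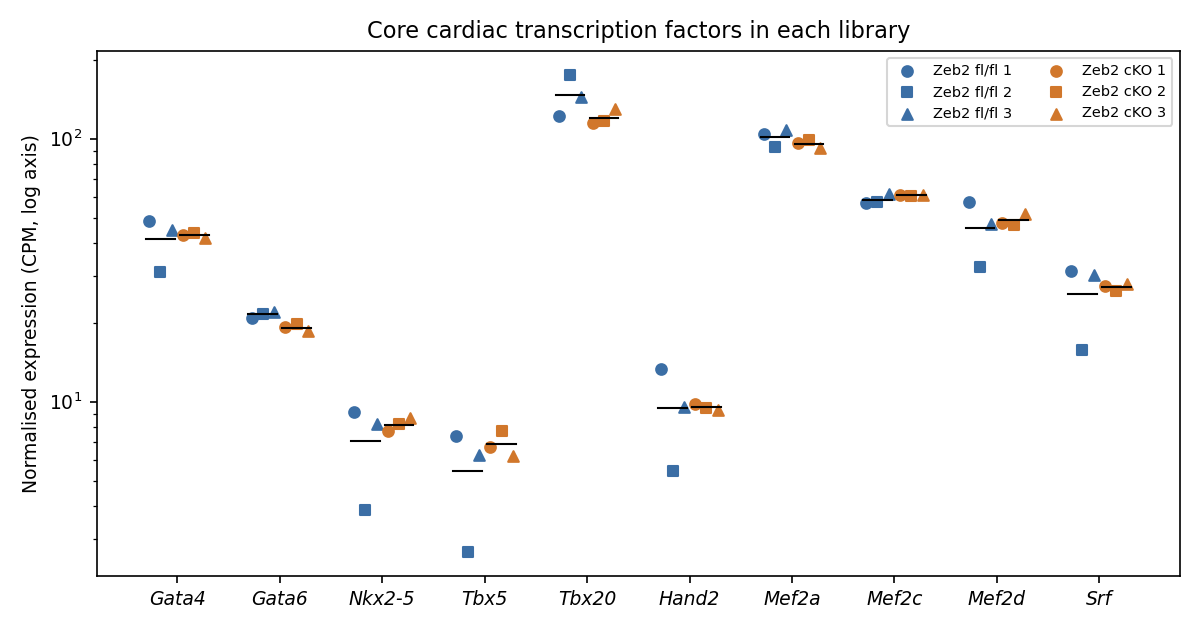
Normalised expression (CPM, log axis) of the 10 core cardiac transcription factors in the 3 Zeb2 fl/fl (control, blue) and 3 Zeb2 cKO (orange) libraries, with 1 point for each library, a marker shape for each replicate number and a line at each group mean. Control 2 (blue square) was the lowest library for 6 of the factors and the highest for Tbx20, and the cKO libraries lay close together.

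Gata4 (ENSMUSG00000021944, chromosome 14 of GRCm38, 63198922 to 63271692, minus strand) encodes a pioneer factor of the heart field that stays active in adult hypertrophy. It was at 48.8, 31.1 and 44.8 CPM in control 1, 2 and 3 (mean 41.6 ± 9.30 SD, n = 3), and cKO 1 to 3 were at 43.0, 43.8 and 41.9 CPM (mean 42.9 ± 0.947 SD, n = 3). The cKO values lay between the lowest and the other control values, and the log2 fold change (cKO over control, ± standard error throughout) was 0.047 ± 0.18. It was -0.12 ± 0.092 when control 2 was left out, with all 3 cKO libraries then below both remaining controls, and 0.18 without control 1.

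Gata6 (ENSMUSG00000005836, chromosome 18, 11052064 to 11085635, plus strand) encodes the second GATA factor of adult heart muscle, which is also made in smooth muscle and fibroblasts. It was at 20.8, 21.6 and 22.0 CPM in the controls (mean 21.5 ± 0.574 SD, n = 3), and cKO 1 to 3 were at 19.2, 19.7 and 18.5 CPM (mean 19.1 ± 0.598 SD, n = 3). Gata6 was the 1 factor of the 10 in which the groups did not overlap, with every cKO library below every control library. Among all tested genes 2.97% were separated in this direction and 3.39% in the other. The exact permutation test gave a two-sided p of 0.1, the smallest that 3 mice against 3 can give, and the log2 fold change was -0.17 ± 0.098 (adjusted p = 0.957 from edgeR). Leaving out control 2 gave -0.16, and that library lay between the other controls. A noncoding gene on the opposite strand, 1010001N08Rik, overlaps 93 exonic bases of Gata6, and its own level of 1.75 to 2.76 CPM had a log2 fold change of 0.14 ± 0.22.

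Nkx2-5 (ENSMUSG00000015579, chromosome 17, 26838664 to 26845009, minus strand), the homeobox factor of cardiac progenitors and conduction tissue, was at 9.11, 3.87 and 8.23 CPM in the controls (mean 7.07 ± 2.80 SD, n = 3). In cKO 1 to 3 it was at 7.71, 8.20 and 8.65 CPM (mean 8.19 ± 0.470 SD, n = 3). Only control 2, with 170 counts of Nkx2-5, lay away from the other 5 libraries. The log2 fold change of Nkx2-5 was 0.21 ± 0.30 with all libraries and -0.078 ± 0.11 without that library.

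Control 2 was the lowest library for the T-box factor Tbx5 and the highest for Tbx20. Tbx5 (ENSMUSG00000018263, chromosome 5, 119832668 to 119885219, plus strand), which drives atrial and conduction genes and works with NKX2-5 and GATA4, was at 7.43, 2.69 and 6.25 CPM in the controls and at 6.75, 7.72 and 6.22 CPM in cKO 1 to 3. With 118 to 338 counts per library it was the factor with the fewest reads. Its log2 fold change was 0.34 ± 0.35, and 0.013 ± 0.14 without control 2 but 0.63 without control 1.

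Tbx20 (ENSMUSG00000031965, chromosome 9, 24718138 to 24774303, minus strand), which acts as a repressor or an activator and is needed in adult cardiomyocytes, was at 122, 175 and 143 CPM in the controls (mean 147 ± 26.7 SD, n = 3). It was at 115, 117 and 130 CPM in cKO 1 to 3 (mean 120 ± 8.29 SD, n = 3). Here control 2 was the highest of the 6 libraries, and the groups overlapped only through control 1 and cKO 3 (exact permutation test, two-sided p = 0.2). The log2 fold change of Tbx20 was -0.29 ± 0.17 and -0.14 ± 0.12 without control 2. Of the longest Tbx20 transcript, 77 bases (0.847%) match a transcript of Pmm1 at 95% identity or more.

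Hand2 (ENSMUSG00000038193, chromosome 8, 57320983 to 57324633, plus strand), a factor of the right ventricle and the outflow tract, was at 13.3, 5.45 and 9.53 CPM in the controls (mean 9.44 ± 3.94 SD, n = 3), and cKO 1 to 3 were at 9.81, 9.47 and 9.31 CPM (mean 9.53 ± 0.258 SD, n = 3). The group means were nearly equal, with the control values spread to both sides. The log2 fold change was 0.016 ± 0.30, and without control 2 it was -0.26 ± 0.15, the only factor below -0.2 in that comparison. The log2 fold change of Hand2 moved with other libraries too. It rose to 0.35 without control 1, and its sign turned, to -0.0059, without cKO 1. Of the longest Hand2 transcript, 461 bases (19.6%) lie opposite exons of the antisense gene Hand2os1, which was not analysed here. How far the deposited counts kept the strands apart is not given, so reads of such pairs may not be told apart.

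**Figure D2:**
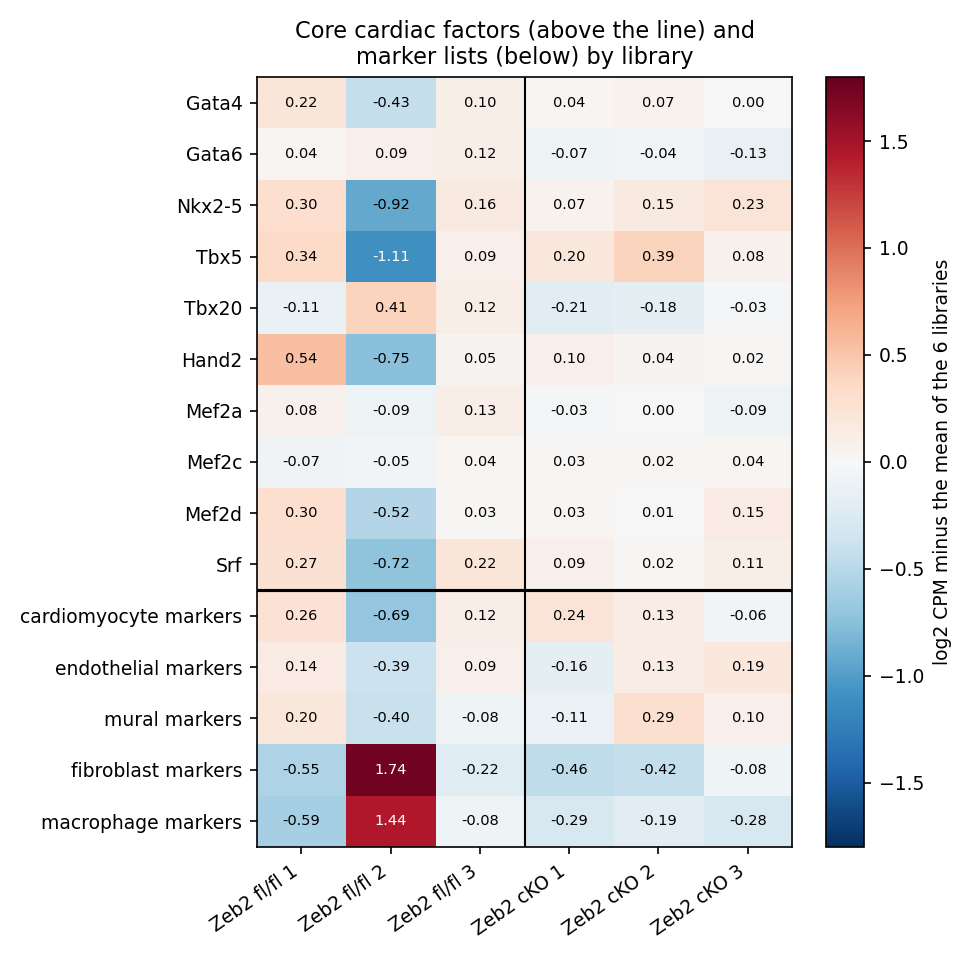
Log2 CPM of each core cardiac factor (above the line) and mean log2 CPM of each marker list (below it), as the difference from the mean of the 6 libraries, in colour and in figures. In control 2, Tbx5 was at -1.11 and Nkx2-5 at -0.92, beside -0.69 for the cardiomyocyte and 1.74 for the fibroblast markers, and Tbx20 was at 0.41.

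Of the MEF2 genes, Mef2a and Mef2c varied less among the controls than Mef2d. Mef2a (ENSMUSG00000030557, chromosome 7, 67231163 to 67372858, minus strand), which also serves mitochondrial upkeep in heart muscle, was at 104, 92.8 and 107 CPM in the controls and 96.3, 98.6 and 92.3 CPM in cKO 1 to 3. Its log2 fold change was -0.084 ± 0.12, and -0.14 ± 0.092 without control 2, when all cKO libraries lay below both controls. Leaving out control 3 instead gave -0.040. The coding gene Lysmd4 on the opposite strand overlaps 302 exonic bases of Mef2a and was at 5.83 to 9.05 CPM.

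Mef2c (ENSMUSG00000005583, chromosome 13, 83504034 to 83667080, plus strand), which the heart tube needs for looping, was at 57.0, 57.5 and 61.5 CPM in the controls and at 60.9, 60.5 and 61.3 CPM in cKO 1 to 3. The highest cKO value of Mef2c was 1.01 times the lowest. Its log2 fold change was 0.054 ± 0.11 with all libraries and 0.043 without control 2, so that library moved Mef2c little.

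Mef2d (ENSMUSG00000001419, chromosome 3, 88142372 to 88172086, plus strand), the family member tied to stress remodeling, was at 57.3, 32.5 and 47.6 CPM in the controls (mean 45.8 ± 12.5 SD, n = 3), and cKO 1 to 3 were at 47.8, 47.2 and 51.9 CPM (mean 48.9 ± 2.58 SD, n = 3). Its log2 fold change was 0.096 ± 0.21, and -0.097 ± 0.11 without control 2. The antisense gene 1700113A16Rik lies opposite 531 exonic bases of Mef2d and was at 0.0521 to 0.296 CPM.

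Srf (ENSMUSG00000015605, chromosome 17, 46548329 to 46556175, minus strand) encodes the serum response factor, which binds the CArG box, a run of A and T between CC and GG, and drives actin, sarcomere and immediate early genes. It was at 31.3, 15.7 and 30.3 CPM in the controls (mean 25.8 ± 8.74 SD, n = 3), and cKO 1 to 3 were at 27.7, 26.3 and 28.0 CPM (mean 27.3 ± 0.885 SD, n = 3). Control 2 had 2.00-fold less Srf than the highest library of its group. The log2 fold change was 0.086 ± 0.26, and -0.17 ± 0.091 without that library, when all 3 cKO values lay below both controls. An antisense gene that spans Srf, Gm26904, had 0 counts in every library.

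Promoter windows of 300 bases, from RefSeq on GRCm38.p6, were searched for 7 of the 10 factors (9 windows). The remaining factors were not searched, so the counts of windows leave them out. The window of Srf is shown because it carries the site that its own product binds. A CArG box was found at 82 to 73 and at 62 to 53 bases before the annotated start, on both strands since the site can be read from either side. These boxes are in capitals in the 250 bases before the start, at chr17:46556163-46556412 on the minus strand. Of all 32851 windows, 1.63% held such a site.

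Srf promoter: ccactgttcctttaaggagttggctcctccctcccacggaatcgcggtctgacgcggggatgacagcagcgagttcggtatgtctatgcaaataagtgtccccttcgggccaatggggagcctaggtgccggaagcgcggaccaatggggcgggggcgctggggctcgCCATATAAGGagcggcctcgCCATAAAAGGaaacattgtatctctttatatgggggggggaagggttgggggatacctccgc

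The E-box CACCTG, the sequence that ZEB proteins bind, was searched on both strands and was in 0 of the 9 windows, beside 20.2% of all windows. The GATA site AGATAA was in 1 of them, that of Hand2, beside 11.2% of all windows. A match is a run of letters and not a measured binding site, and ZEB2 binding was not measured in these libraries.

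The spread within a group differed more than the group means. The highest library of a group held 1.05 to 2.76 times the CPM of the lowest in control hearts, from Gata6 to Tbx5, and 1.01 to 1.24 times in cKO hearts, from Mef2c to Tbx5. On the log2 scale the SD was larger among the control libraries for 9 of the 10 factors, with Gata6 as the exception, and for 71.3% of all tested genes. Control 2 was the lowest of the 6 libraries for 6 factors (Gata4, Nkx2-5, Tbx5, Hand2, Mef2d and Srf) and for 34.6% of all tested genes. It was the highest for 1 factor, Tbx20, and for 35.2% of all tested genes. The cardiomyocyte markers were low and the fibroblast and macrophage markers high in the same library, and their part in the levels of these factors was not tested.

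Without control 2, 8 of the 10 factors had a log2 fold change below 0 and 2 (Tbx5 and Mef2c) above it, with a median of -0.13 beside 0.0026 over all genes tested in those 5 libraries. Of them 1 factor, Hand2, was below -0.2 (11.7% of all tested genes) and 0 were above 0.2 (14.2% of all). In 4 factors, Gata4, Gata6, Mef2a and Srf, all 3 cKO libraries lay below both control libraries, where 7.22% of all genes did so and 8.31% lay the other way, which was found in 0 factors. An unadjusted p under 0.05 was reached by 0 factors and by 2.63% of all genes, and an adjusted p under 0.05 by 0% of genes (edgeR). The log2 fold changes of Gata4, Nkx2-5, Hand2, Mef2d and Srf were thus above 0 with 6 libraries and below 0 with 5.

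When libraries were scaled so that the cardiomyocyte markers were equal, the median over all genes moved to -0.26, with 59.2% of all genes below -0.2 and 4 of the factors there. Relative to that median each of the 10 factors kept the side it had with TMM, where the median was -0.0069. From the median of -0.26 with the cardiomyocyte scaling, Tbx20 differed by -0.35, Gata6 by -0.18 and Tbx5 by 0.50. From the TMM median they differed by -0.28, -0.16 and 0.35. With the mean level of the fibroblast and macrophage markers as a covariate, Gata6 was at -0.16, Mef2a at -0.13, Tbx20 at -0.15 and Tbx5 at 0.066. Without control 2 these factors were at -0.16, -0.14, -0.14 and 0.013. The markers were far higher in control 2 than in any other library, so the covariate largely marks that library.

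**Figure D3:**
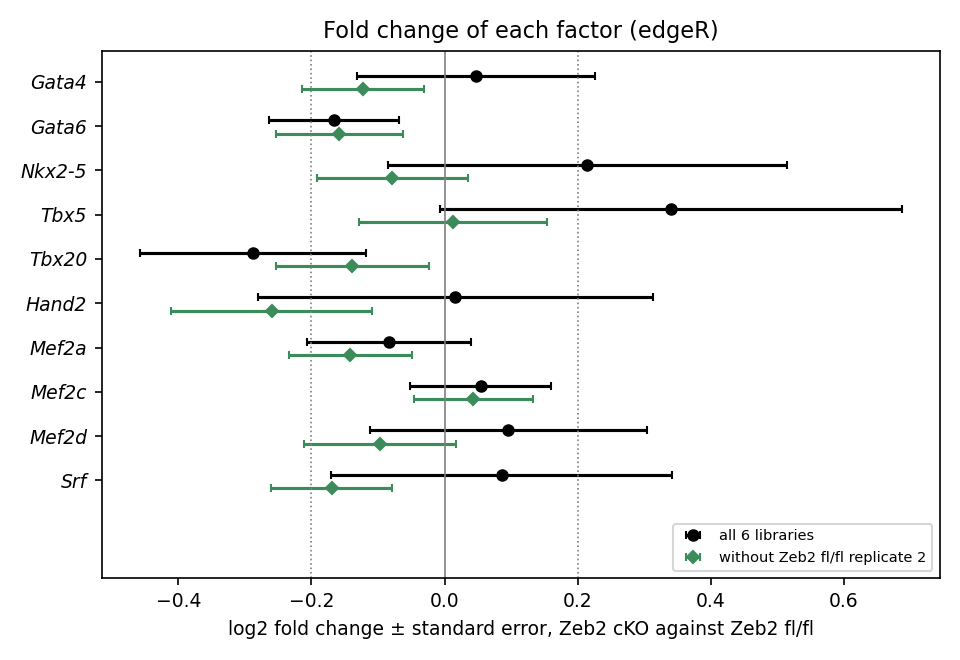
Log2 fold change with its standard error for each core cardiac factor between cKO and control hearts, from edgeR, with all 6 libraries (black circles) and without control 2 (green diamonds); dotted lines mark 0.2 in each direction. Without that library the standard errors were 0.090 to 0.15, against 0.098 to 0.35 with all 6, and only Hand2 was past 0.2.

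Levels of different factors were compared as CPM per kilobase of exon. Over the 6 libraries Tbx20 was at 11.1 ± 1.91, Gata4 at 10.8 ± 1.53, Srf at 9.17 ± 1.94, Mef2d at 7.92 ± 1.38 and Mef2a at 6.72 ± 0.418 CPM per kilobase (SD, n = 6). Below them came Nkx2-5 at 4.44 ± 1.1, Hand2 at 4.03 ± 1.06, Mef2c at 3.8 ± 0.126, Gata6 at 3.12 ± 0.213 and Tbx5 at 1.32 ± 0.388. The ranges of neighbours overlapped along the first 5 factors and again from Nkx2-5 to Mef2c, while Mef2a and Nkx2-5, Mef2c and Gata6, and Gata6 and Tbx5 did not overlap. This order depends on the length used, which is the union of all annotated exons. With the longest transcript instead, Mef2a was first, at 17.8 ± 1.11 CPM per kilobase, and Mef2c was the fifth, at 9.52 ± 0.316, while Tbx5 stayed last at 1.57 ± 0.460 (SD, n = 6).

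Ratios within a library do not depend on how libraries are scaled. The log2 ratio of Gata4 to Gata6, per kilobase, was 1.97, 1.26 and 1.77 in control 1, 2 and 3 and 1.90, 1.89 and 1.92 in cKO 1 to 3, a difference of 0.24 (exact permutation test, two-sided p = 0.4) that was 0.037 without control 2 and 0.39 without control 1. Control 2 held relatively less Gata4 than any other library. The log2 ratio of Tbx5 to Tbx20 was -2.68, -4.67 and -3.16 in the controls and -2.73, -2.56 and -3.03 in cKO 1 to 3, a difference of 0.73 (exact permutation test, two-sided p = 0.3) that was 0.15 without control 2 and 1.14 without control 1. Its range was the widest of the 5 ratios, again through control 2. Nkx2-5 to Gata4 differed by 0.23 (p = 0.4), Hand2 to Gata4 by 0.034 (p = 0.7) and Srf to the summed MEF2 genes by 0.12 (p = 1), all from the exact permutation test, two-sided. Without control 2 these differences were 0.042, -0.12 and -0.086, so the last pair turned sign, and without control 1 they were 0.33, 0.20 and 0.21. Leaving out control 3 gave 0.32, 0.021 and 0.23, and Hand2 to Gata4 was 0.015 without cKO 1 and 0.054 without cKO 2.

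Of the summed MEF2 level, Mef2d made up 41.3 ± 5.97% in control and 44.0 ± 1.74% in cKO hearts (SD, n = 3 each). Mef2a held 38.0 ± 3.03% and 35.1 ± 1.59%, and Mef2c held 20.7 ± 2.95% and 20.9 ± 0.184%. The groups overlapped for each of the 3 shares, with two-sided p of 0.5 for Mef2d, 0.3 for Mef2a and 0.8 for Mef2c (exact permutation test). The difference in percentage points, cKO minus control, was 2.72 for Mef2d, -2.92 for Mef2a and 0.196 for Mef2c. Without control 2 it was -0.30, -1.44 and 1.74, and without control 1 it was 5.67, -4.46 and -1.21. Mef2d was at 1.73 without cKO 3, and Mef2c at 0.0585, 0.109 and 0.292 without control 3, cKO 1 and cKO 3. With the longest transcript as the length, Mef2a was the largest part, at 50.8% in control and 48.0% in cKO hearts. The 8 ratios and shares are 1 family of comparisons, in which the lowest p adjusted after Benjamini-Hochberg was 0.8 (exact permutation test).

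**Figure D4:**
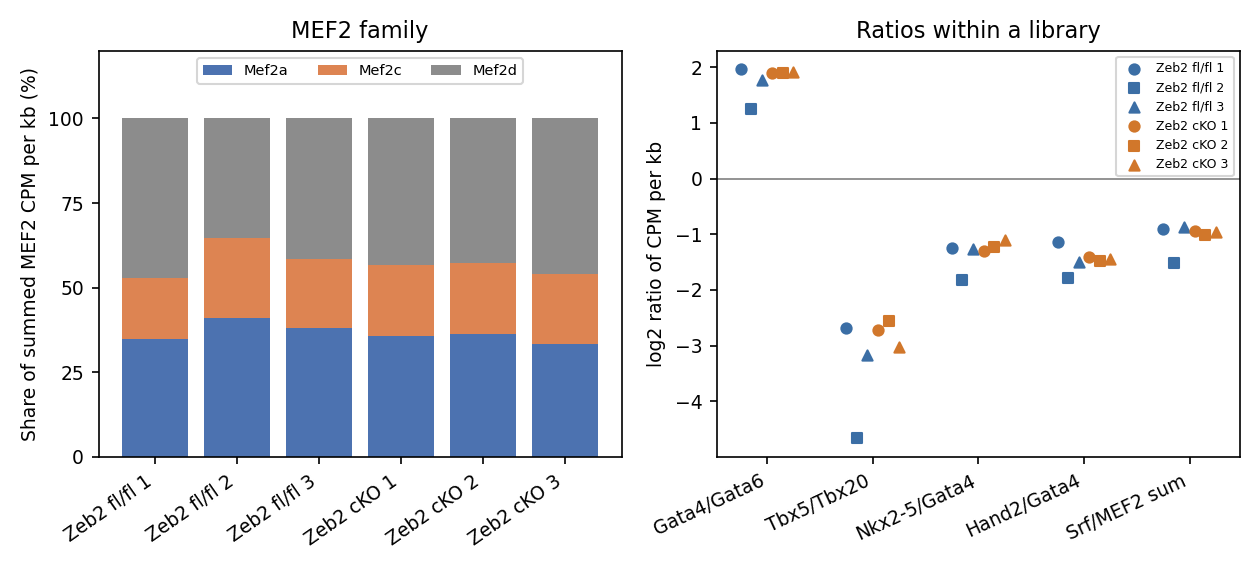
Left, the share (%) of Mef2a, Mef2c and Mef2d in their summed CPM per kilobase of exon in each library. Right, log2 ratios of CPM per kilobase between factors, with blue points for control and orange points for cKO libraries; control 2 was the lowest point of every ratio, at -4.67 for Tbx5 to Tbx20, and the cKO libraries lay between -3.03 and -2.56 there.

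The pattern of each factor over the 6 libraries was set against the other factors and the tested genes of a list of partners, 45 genes in all, by the root mean square difference of log2 CPM after centring on the mean of the libraries. Gata6 and Mef2a were nearest to each other, at 0.081. Tbx5 was nearest to Nkx2-5, at 0.15. Nkx2-5 (0.088) and Hand2 (0.094) were nearest to Tbx3, Srf to Irx5 (0.10), Gata4 to Smarcd3 (0.082), Mef2d to Hdac4 (0.085), Mef2c to Meis2 (0.064) and Tbx20 to Nfatc3 (0.047).

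Partners and relatives of the core factors were taken from a list of 42 genes, of which 36 were tested and 0 passed an adjusted p of 0.05 in either direction (edgeR). Below -0.2 in log2 fold change were 10 of them and above 0.2 were 6, with a median of 0.049 that was -0.041 without control 2. The count above 0.2 was 16 without control 1, 12 without control 3 and 2 without control 2. Of all 14746 genes, 22.6% were below -0.2 and 15.9% above 0.2 with all libraries. Above 0.2 the share of these genes was 26.4% without control 1, 21.5% without control 3 and 13.8% without control 2. The lone partner at an unadjusted p under 0.05 was Mrtfa, a coactivator of SRF that actin releases into the nucleus. Mrtfa was at 5.87, 7.82 and 6.12 CPM in the controls and at 3.66, 4.91 and 5.49 CPM in cKO 1 to 3. All 3 cKO libraries were below the controls, with a log2 fold change of -0.49 ± 0.20 (unadjusted p = 0.0425, adjusted p = 0.957 from edgeR), and -0.35 without control 2. Of the related coactivators, Myocd, the heart and smooth muscle form, had a log2 fold change of 0.026 and Mrtfb of 0.020 (-0.0089 without control 2). Without control 2, 2 partners were at an unadjusted p under 0.05, namely Myocd at -0.28 and Klf15, a brake on hypertrophy, at -0.36.

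By p, Cited2, a partner of the p300 coactivator, and Nfatc2, a calcineurin-driven factor, were next among the lower genes, with log2 fold changes of -0.24 ± 0.13 and -0.24 ± 0.13 and no overlap of the groups. Without control 2 they were at -0.22 and -0.24. Lower by fold change were Tcf21, a fibroblast factor, at -0.86, Ankrd1, a stretch-induced cofactor, at -0.37 and Tbx18, an epicardial factor, at -0.28. Without control 2 these were at 0.098, -0.41 and 0.12. All 4 NFAT genes lay below -0.2, from -0.32 for Nfatc4 to -0.21 for Nfatc3, and 0 of 4 passed the test. Without control 2 they ran from -0.24 to -0.039. The 4 class IIa histone deacetylases, which hold MEF2 proteins in check, ran from 0.054 for Hdac7 to 0.20 for Hdac4. Without control 2 they ran from -0.14 to 0.038, with Hdac5 and Hdac9 below 0 and Hdac4 and Hdac7 still above it. Among the 9 tested homeobox genes, 8 had values above 0, as had 5 without control 2. Irx4, a ventricle-specific factor, was at 14.1, 5.58 and 13.9 CPM in the controls and 19.9, 15.3 and 15.5 CPM in cKO 1 to 3. All cKO libraries of Irx4 were above the controls, with a log2 fold change of 0.59 ± 0.34, and 0.27 without control 2. The log2 fold change was 0.63 ± 0.50 for Irx2 and 0.19 ± 0.15 for Meis1, and without control 2 it was 0.26 and 0.12. The GATA cofactors Zfpm1 and Zfpm2 were at -0.10 and -0.18, and without control 2 at -0.36, with the cKO libraries below both controls, and 0.00069. Hand1 and Mef2b, close relatives of Hand2 and of the MEF2 members, had 0 counts in every library, which allows up to 3 counts or 0.0558 to 0.0796 CPM for counting error alone.

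**Figure D5:**
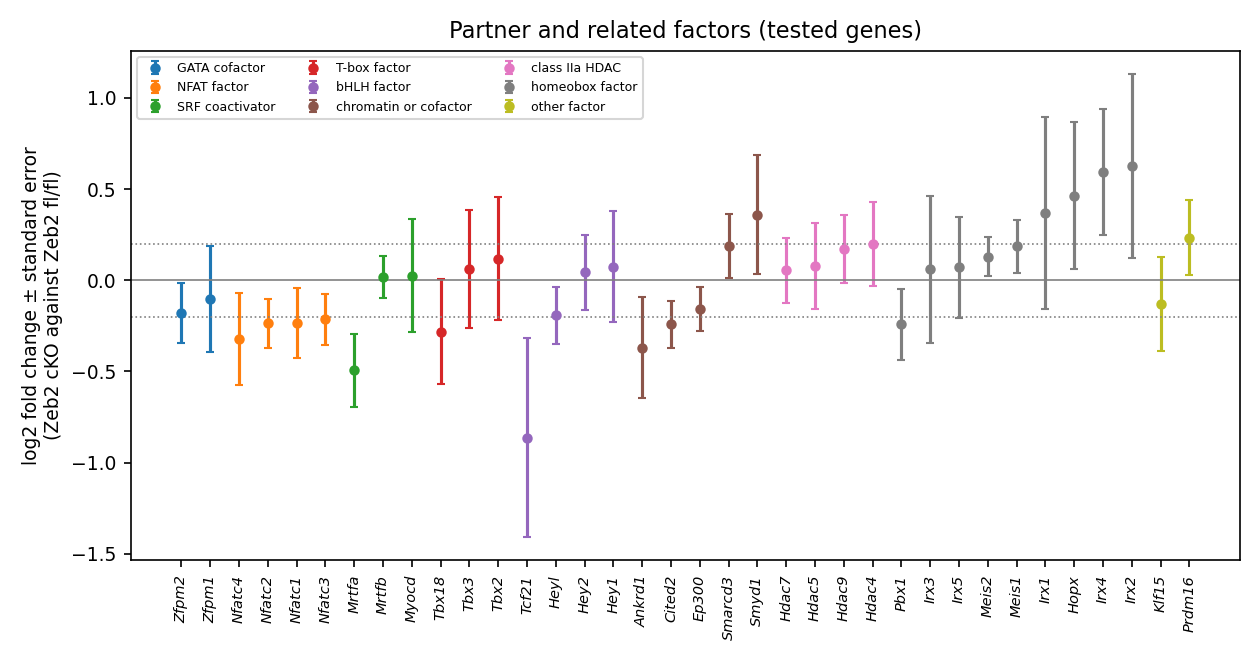
Log2 fold change with its standard error between cKO and control hearts for the 36 tested partners and relatives of the core cardiac factors, coloured by role, from edgeR. Mrtfa, at -0.49, was the 1 gene at an unadjusted p under 0.05; the NFAT genes lay between -0.32 and -0.21 and the class IIa histone deacetylases between 0.054 and 0.20, with standard errors of 0.13 to 0.25 and 0.18 to 0.23.

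Known target genes of the factors were counted in the same fit. Of 21 cardiac targets 0 passed an adjusted p of 0.05, with 2 below -0.2, 6 above 0.2 and a median log2 fold change of 0.16. Without control 2 the median was -0.086, with 16 of the 21 below 0 in place of 5. The 2 lower genes were the natriuretic peptide genes, classical targets of GATA4, NKX2-5 and SRF. Nppa was at 337, 717 and 309 CPM in the controls and 189, 131 and 188 CPM in cKO 1 to 3, a log2 fold change of -1.42 ± 0.36 (unadjusted p = 0.00584, adjusted p = 0.957 from edgeR). Its groups did not overlap, and it was at -0.93 without control 2. Nppb had a log2 fold change of -0.60 ± 0.35 with overlapping groups, and -0.24 without control 2. The 10 sarcomere genes ran from -0.076 for Myh7 (0.094 without control 2) to 2.38 for Myl7 (1.87 without it), an atrial light chain that was at 7.26 CPM in cKO 2 and at 0.114 to 1.23 CPM in the other libraries. The 5 atrial markers, Myl7 among them, summed to 20.3 CPM in cKO 2 and to 4.69 to 7.18 CPM elsewhere, and their part in Myl7 was not tested. Gja5, an atrial and conduction connexin, was at 0.33 ± 0.25 and Pln, the brake on the calcium pump, at 0.27 ± 0.28, and without control 2 at 0.12 and 0.11. In 17 of the 21 cardiac targets control 2 was the lowest library. Without it 5 were below -0.2 and 1 above 0.2, and Nppa was at an unadjusted p of 0.000781 (edgeR).

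Of 18 SRF targets 0 passed an adjusted p of 0.05 and 0 reached an unadjusted p under 0.05, with 2 below -0.2, 6 above 0.2 and a median log2 fold change of 0.023, which was 0.063 without control 2. Tagln and Actb, of smooth muscle and the cytoskeleton, were at -0.40 ± 0.31 and -0.27 ± 0.24, and Flna, which crosslinks actin, at -0.11. All 3 were highest in control 2 and turned sign without it, at 0.058, 0.034 and 0.038. Actg1, another cytoplasmic actin, was at 0.44 ± 0.30, the immediate early gene Egr3 at 0.44 ± 0.39 and Acta2 of smooth muscle at 0.36 ± 0.36. Without control 2 they were at 0.17, 0.31 and 0.34. Acta2 was at 85.4 CPM in cKO 2 and at 31.1 to 47.3 CPM in the other 5 libraries. Without control 2 the targets below -0.2 were 3 and those above were 3, and Fhl2, an adaptor at the sarcomere that binds SRF, at -0.32, was at an unadjusted p under 0.05. Over the 39 genes of both target lists, 12 above 0.2 became 23 without control 1 and 4 without control 2, and 4 below -0.2 became 7 to 9 without control 2, control 3, cKO 2 or cKO 3, each left out alone. Of all 14746 genes, 15.9% were above 0.2 with all libraries, 26.4% without control 1 and 13.8% without control 2. Below -0.2 were 22.6% with all libraries, 11.3% without control 2 and 26.8% without control 3.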

How the data were processed

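Per the labels and methods, stranded ribosome-depleted RNA libraries were sequenced from one end and run through a STAR workflow with Gencode M4 genes on GRCm38, and the authors deposited raw counts. The STAR version, strand option and handling of multi-mapping reads are not given in the sources used here. Of the columns, 0 were left unmatched to a sample.

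Symbols, coordinates and exon lengths came from Gencode M21 of the same build by gene identifier. Counts were filtered with filterByExpr, TMM-scaled and tested with glmQLFit and glmQLFTest in edgeR 4.0.16 (R 4.3.3), with genotype as the factor and Benjamini-Hochberg adjustment over all 14746 genes kept. Permutation tests were exact and two-sided, with a smallest p of 0.1. DESeq2 1.42.0 served as an alternative. Near-identical stretches were found with BLAST 2.17.0, at 75 bases and 95% identity or more. Steps were tested on simulated counts. There edgeR called 22 of 95 genes with a true log2 change of 1, 80 of 96 at 2 and 12 of 14343 at 0. In the same simulation DESeq2 called 53 of 100, 87 of 100 and 55 of 14546.

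The factors, gene lists and tests were chosen with earlier results of these data known. Genes named were the 10 factors, Zeb2, the 3 genes of each partner or target list with the smallest p in each direction, list genes at an unadjusted p under 0.05, nearest patterns and overlapping antisense genes. Marker lists were given as sums, and other genes were named after their values were seen. Replicate numbers do not mark shared animals. Depth was 14301225 to 19024394 counts per library outside mitochondrially encoded genes, and counting error is only part of the error given.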

Additional observations from a re-analysis of the deposited data

How the results depend on the processing

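Each factor's log2 fold change was recomputed under 14 alternatives (140 values), of which 16 had the other sign, and Gata6, Tbx20, Mef2a and Tbx5 kept theirs in all. Of those 16, 5 came from scaling to the cardiomyocyte markers, which moved the median of all genes to -0.26 and put 59.2% of them below -0.2. Relative to that median all 10 factors kept their side. With this scaling Gata4 was at -0.14, Hand2 at -0.11, Mef2c at -0.21, Mef2d at -0.066 and Srf at -0.050. With the fibroblast and macrophage markers as a covariate, Gata4 was at -0.10, Hand2 at -0.22, Mef2d at -0.069, Nkx2-5 at -0.023 and Srf at -0.13. With 1 library left out at a time, Gata4 ran from -0.12 to 0.18, Hand2 from -0.26 to 0.35, Mef2d from -0.097 to 0.29, Nkx2-5 from -0.078 to 0.44 and Srf from -0.17 to 0.25. Factors above 0.2 numbered 1 with the cardiomyocyte scaling, 0 with the covariate and 0 to 5 with 1 library left out, and those below -0.2 numbered 4 with that scaling. Partners above 0.2 were 13 with no filter on low counts, which adds genes, 2 with the covariate and 2 to 16 with 1 library left out, and those below -0.2 were 16 of 36 with the cardiomyocyte scaling. Target genes above 0.2 were 6 with that scaling, 5 with the covariate and 4 to 23 with 1 library left out, and those below were 12, 7 and 4 to 9. Of the 14746 genes, 5.19% were above 0.2 with that scaling, 12.9% with the covariate and 13.8% to 26.4% with 1 control left out. DESeq2 called 2 genes higher and 0 lower. With edgeR 0 genes passed an adjusted p of 0.05 under any alternative, and the number at an unadjusted p under 0.05 was 122 (without cKO 1) to 1134 (without control 1), beside 280. Where a cause is not named, the cause was not tested. The numbers 1 to 3 did not pair the animals (same-number correlations of 0.088, -0.14 and -0.087), and the replicate block changed no call, with 0 genes called, 247 at an unadjusted p under 0.05, 1 factor below -0.2 and 2 above 0.2. With 3 animals a group, differences inside the intervals given could not be resolved.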
